A study of Mus musculus with 8 samples.

Results

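The Slc25 genes encode the mitochondrial carrier family, and 44 of the 24078 entries in the count table carried a symbol made of Slc25a and a number. These 44 entries were the members, and no entry of this form had a duplicate suffix. All 44 had enough counts to be tested. RNA sequencing had been carried out on hippocampus of 4 mice homozygous for the targeted Wfs1 allele of the line named Wfs1tm1Koks and of 4 wild-type mice, whose labels name the same line. The labels give no age, sex or treatment. Wfs1 encodes wolframin, a membrane protein of the endoplasmic reticulum, and the single comparison asks which transcripts differ when both copies carry the mutation. It is a germline allele, so every cell type of the animal carries it.

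Mitochondrial carriers are small proteins of the inner mitochondrial membrane, each built from repeats of one unit that span the membrane in a bundle of helices. They exchange nucleotides, phosphate, carboxylates, amino acids and cofactors between the cytosol and the matrix, so that oxidative phosphorylation and the metabolic shuttles can work across a membrane that is otherwise closed to these solutes. In brain, the ADP/ATP carriers, the phosphate carrier and the aspartate/glutamate carrier aralar are the best known, since they supply ATP synthesis and carry cytosolic reducing equivalents into mitochondria of neurons. In homozygous hippocampus Slc25a3, Slc25a4, Slc25a5, Slc25a11 and Slc25a12 were among the lower members and several rarer carriers among the higher. Over all genes, too, abundant transcripts were more often lower than rare ones. In the fits below that removed this trend, the call of Slc25a4 was lost. That of Slc25a11 was lost in the fit on counts per kilobase.

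Upstream sequences are shown for 2 energy carriers that the results turn on, Slc25a5 and Slc25a3, and for Slc25a1, the member that rose most. Each run is taken from the 250 bases before the RefSeq start on build GRCm38.p6, stops before whichever of the RefSeq and GENCODE starts lies further upstream, and is written 5′ to 3′ on the gene's strand with matches to the motifs searched in capitals. Slc25a5 is shown from chrX:36795347-36795596 (plus strand), Slc25a3 from chr10:91124060-91124217 (minus, 158 bases) and Slc25a1 from chr16:17928220-17928469 (minus). GENCODE places the start of Slc25a5 54 bases downstream of RefSeq's and that of Slc25a3 92 bases upstream.
Slc25a5: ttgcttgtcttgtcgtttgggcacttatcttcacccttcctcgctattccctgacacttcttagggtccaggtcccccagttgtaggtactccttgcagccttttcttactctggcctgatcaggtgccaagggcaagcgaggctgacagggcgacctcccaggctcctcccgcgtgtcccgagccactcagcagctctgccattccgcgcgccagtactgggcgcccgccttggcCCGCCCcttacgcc
Slc25a3: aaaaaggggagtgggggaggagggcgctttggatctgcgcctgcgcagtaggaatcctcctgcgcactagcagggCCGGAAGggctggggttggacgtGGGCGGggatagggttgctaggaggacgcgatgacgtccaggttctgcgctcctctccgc
Slc25a1: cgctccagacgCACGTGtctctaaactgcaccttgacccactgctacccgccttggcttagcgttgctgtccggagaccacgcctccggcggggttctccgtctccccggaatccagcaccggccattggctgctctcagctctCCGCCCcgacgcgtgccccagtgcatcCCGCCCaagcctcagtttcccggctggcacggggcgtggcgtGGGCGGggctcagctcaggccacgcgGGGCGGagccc
The motifs searched on both strands were the NRF1 consensus, CCGGAAG of ETS factors, AAGATGGC of YY1, the GC box GGGCGG, the cyclic AMP element TGACGTCA and the E-box CACGTG, none of which contains another. A promoter entry was found for 34 members, and matches were counted in the whole RefSeq window, which for Slc25a3 and Slc25a4 runs into the first exon that GENCODE gives. The ETS motif was in the window of 3 of the 9 lower members with an entry (Slc25a3, Slc25a4 and Slc25a38), of 0 of 9 higher members and of 2 of 16 others, against 6.91% of all 32851 windows. The E-box was in at least 1 window of 4 of 9 higher members (Slc25a1, Slc25a13, Slc25a15 and Slc25a31), of 1 of 9 lower members (Slc25a14) and of 2 of 16 others, against 6.02% of all windows. The GC box was in 6 of 9 lower, 5 of 9 higher and 13 of 16 other members, against 32.7% of all windows. Neither the NRF1 motif (0.782% of all windows) nor the YY1 motif (1.56%) was found in a member's window, and the cyclic AMP element was found in those of Slc25a25 and Slc25a36 (1.55% of all windows). A match is a stretch of letters, and some members have several windows, so these counts describe the sequences alone.

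The libraries held 3250949 to 6747411 counts. Wfs1 itself was at 44.6 to 61.3 CPM (each count scaled to the TMM-adjusted size of its library) in wild-type and 12 to 17.7 CPM in homozygous libraries (log2 fold change -1.81, SE 0.16), the direction the labels give. Counts are per gene and not per exon, and those left can come from outside the targeted part. All 7 markers of hippocampal neurons were detected. Together they made up 629 to 834 CPM in wild-type mice against 357 to 400 CPM in homozygous ones, 4 of them being lower and none higher. Of 5 general neuronal markers 4 were lower and 1 higher (sums 1506 to 2080 against 1008 to 1246 CPM), of 6 astrocyte markers 3 were lower (2903 to 3622 against 1960 to 2207 CPM) and of 5 oligodendrocyte markers 4 were lower (1236 to 1990 against 842 to 1050 CPM), where 20.4% of all genes tested were lower. Slc1a2 alone made up 2325 of the mean astrocyte sum of 3249 CPM in wild-type mice. The astrocyte markers Aqp4 (log2 fold change -0.13), Gja1 (-0.07) and Aldh1l1 (1.02) were not called. Aldh1l1 was called higher with library totals (1.21) and with the per-kilobase trend removed (1.24), and stood at 216 CPM in homozygous replicate 18. With each library's trend of counts on gene abundance removed, 4 hippocampal, 2 neuronal, 0 astrocyte and 1 oligodendrocyte markers were lower. With the per-kilobase trend removed 2, 2, 0 and 0 were lower. Summed microglia markers (149 to 193 against 142 to 234 CPM), endothelial markers (102 to 127 against 88.2 to 115 CPM), choroid plexus markers (150 to 1125 against 72.2 to 800 CPM) and thalamus markers (129 to 153 against 130 to 156 CPM) overlapped between genotypes, and so did the striatum, blood, and brown fat and muscle markers. Single genes of these lists were called: C1qa of microglia, Flt1 and Ly6c1 of endothelium, Hbb-b1 (log2 fold change -1.95) of blood and Cidea (-2.27) of brown fat lower, and Ppp1r1b (0.81) of striatum and Alas2 (0.91) of blood higher. The part of cell composition in the carrier results was not tested, and in tissue RNA fewer cells of a type and less RNA per cell cannot be told apart. Replicates are separate animals per the series' design text.

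Of the 44 members, 11 (25.0%) were higher and 11 (25.0%) lower in homozygous hippocampus by edgeR (adjusted p under 0.05, quasi-likelihood test), and 22 passed in neither direction. Over all 20478 genes tested the same rule called 20.7% higher and 20.4% lower, so the number of calls in the family was near the background and only the identity of the genes is described here. The 4 homozygous values lay wholly above the 4 wild-type values for 12 members and wholly below for 12, against 18.8% of all genes in each direction and 37.6% in either. The median log2 fold change of the members was 0.01, beside 0.05 for all genes, and single members ran from -1.35 for Slc25a5 to 1.62 for Slc25a1. With library totals as the only scaling, 16 members were higher and 10 lower (background 32.4% and 11.8%, 44.2% in either direction), and the median of all genes moved to 0.25 and that of the members to 0.21. All 22 calls kept their direction there, though Slc25a38 was no longer called, while Slc25a16, Slc25a20, Slc25a24, Slc25a37 and Slc25a40 were called higher.

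**Figure D1:**
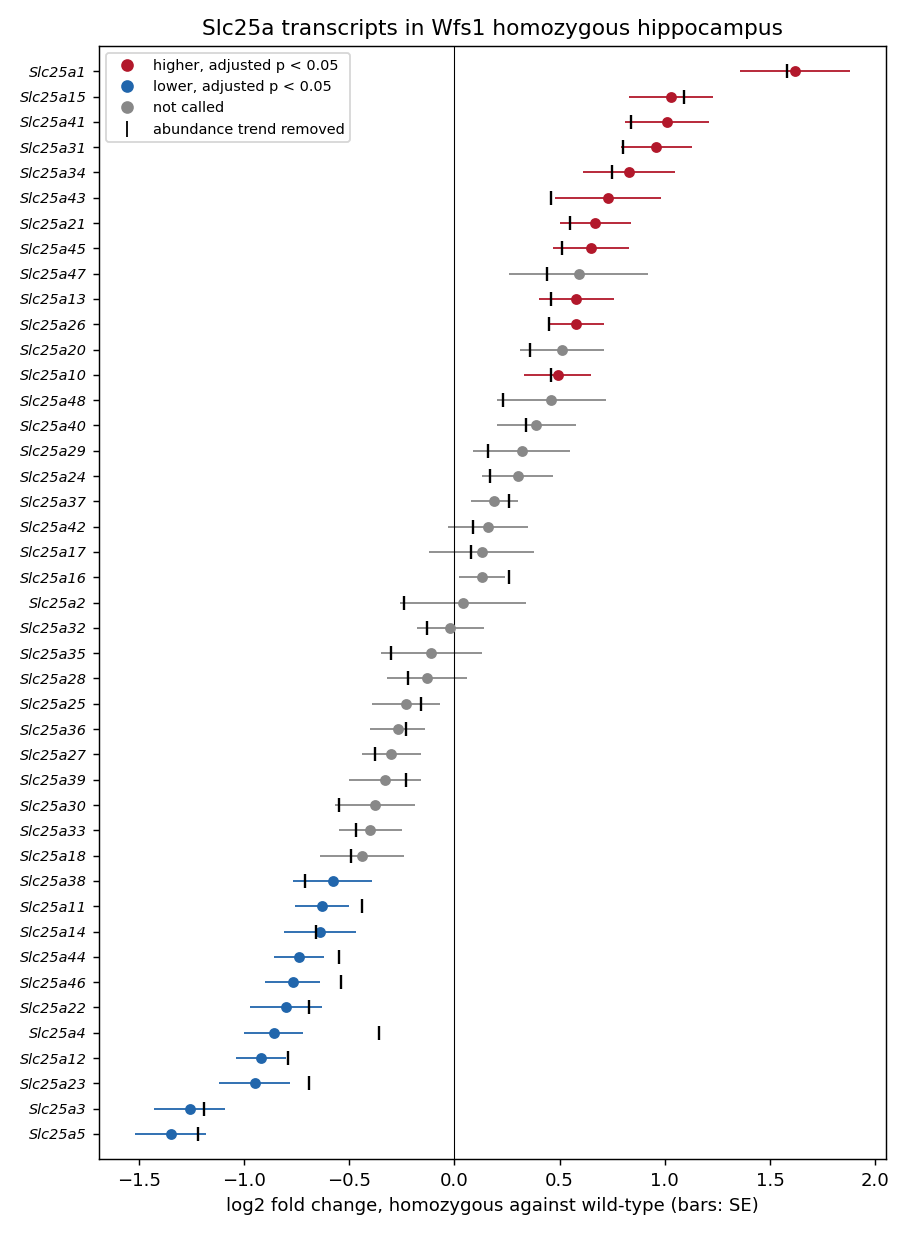
Log2 fold change of the Slc25a genes (1 of the 44 is not drawn), homozygous against wild-type, with its SE (horizontal bars, n = 4 libraries per genotype); colours give the edgeR call and black ticks the value with the abundance trend removed. Slc25a5 (-1.35) and Slc25a1 (1.62) stand at the ends, and the tick of Slc25a4 (-0.36) lies far from its point (-0.86).

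Change went along with level. Among the 22 members of highest mean CPM (22.6 to 237 CPM) 10 were lower and 4 higher, and among the 22 rarest (3.28 to 22.5 CPM) 1 was lower and 7 were higher. All genes of the same ranges of level went the same way, with 31.0% lower and 18.8% higher in the upper range and 9.47% lower and 23.4% higher in the lower range. A further pair of fits therefore took out of every library its smooth dependence on how abundant a gene is, or on its counts relative to exon length in kilobases. With the abundance trend removed 9 members were higher and 12 lower (background 34.3% in either direction), and with the per-kilobase trend removed 9 were higher and 11 lower (background 32.2%). Where one of these fits ends the call of a member it is named beside the gene.

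**Figure D2:**
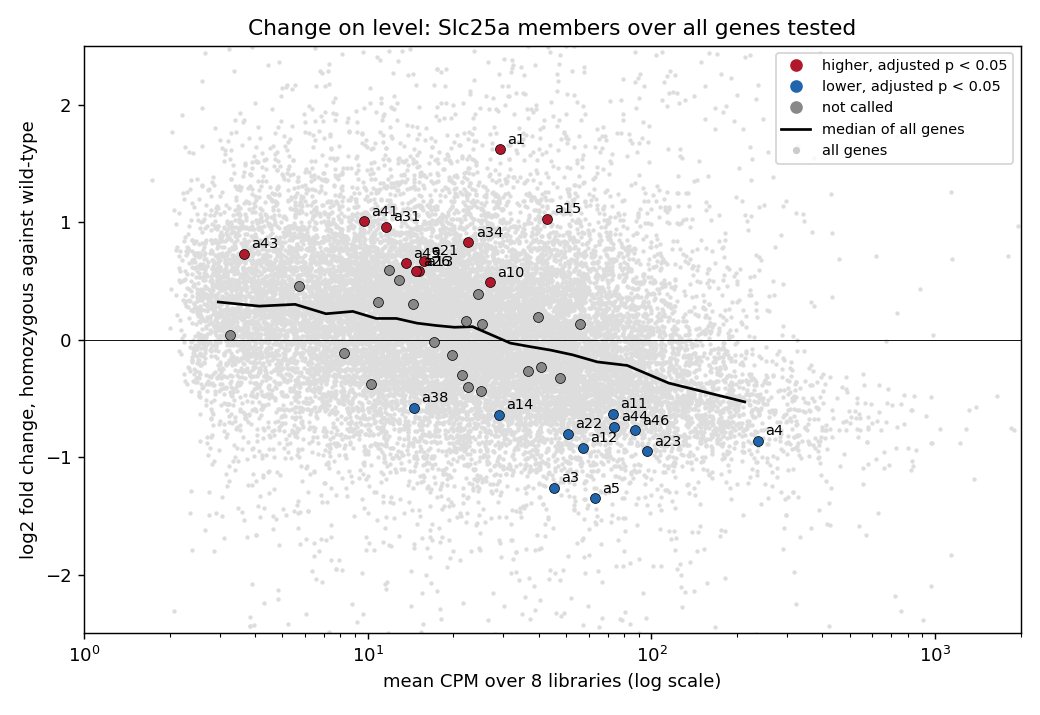
Log2 fold change (homozygous against wild-type) on mean CPM over the 8 libraries (log scale) for all 20478 genes (grey), with the running median of all genes as a line and the Slc25a genes (1 of the 44 is not drawn) as larger points coloured by call. The line falls with level, most lower members lie to the right and below it, and Slc25a1, Slc25a15, Slc25a31 and Slc25a41 lie well above it; genes beyond ±2.5 are not drawn.

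Levels between genes were compared as CPM per kilobase of exon. In wild-type hippocampus Slc25a4 was the highest member with 130 ± 4.85, followed by Slc25a5 with 55.4 ± 3.40, Slc25a11 with 41.7 ± 2.57, Slc25a44 with 25.9 ± 2.60, Slc25a23 with 24.1 ± 5.38 and Slc25a46 with 20.4 ± 2.42 CPM per kilobase (SD, n = 4). The first 3 were apart by more than their spread, while the spread of Slc25a23 reached both Slc25a44 and Slc25a46. The 11 lower members had wild-type levels of 6.32 to 130 CPM per kilobase (median 20.4), and the 11 higher members 1.57 to 6.62 (median 3.81). As a gauge of how low such values are, 144 genes for keratins, taste receptors, Mrgpr receptors and cytochromes P450 2, families with little known role in hippocampus, spanned 1.72 to 7.81 CPM per kilobase in wild-type libraries and 2.24 to 8.52 in those of homozygous mice from their 10th to their 90th percentile. This gauge was chosen after the data were seen. It holds only genes of these families that passed the low-count filter, so it does not give the level of the whole families. None of the 11 higher members exceeded 7.81 in wild-type. In homozygous libraries 5 exceeded 8.52: Slc25a1 (20.4 CPM per kilobase), Slc25a34 (10.8), Slc25a15 (10.2), Slc25a41 (9.74) and Slc25a10 (9.10). The gauge genes themselves had a median log2 fold change of 0.35 (0.17 with the abundance trend removed). Of the 144, 33 (22.9%) were higher and 7 lower. Over all genes 20.7% were higher and 20.4% lower, and 23.4% and 9.47% in the range of level of the 22 rarest members. Of the 11 lower members 10 exceeded the gauge in wild-type and 7 in homozygous libraries, and of the 22 others 5 did in each genotype.

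**Figure D3:**
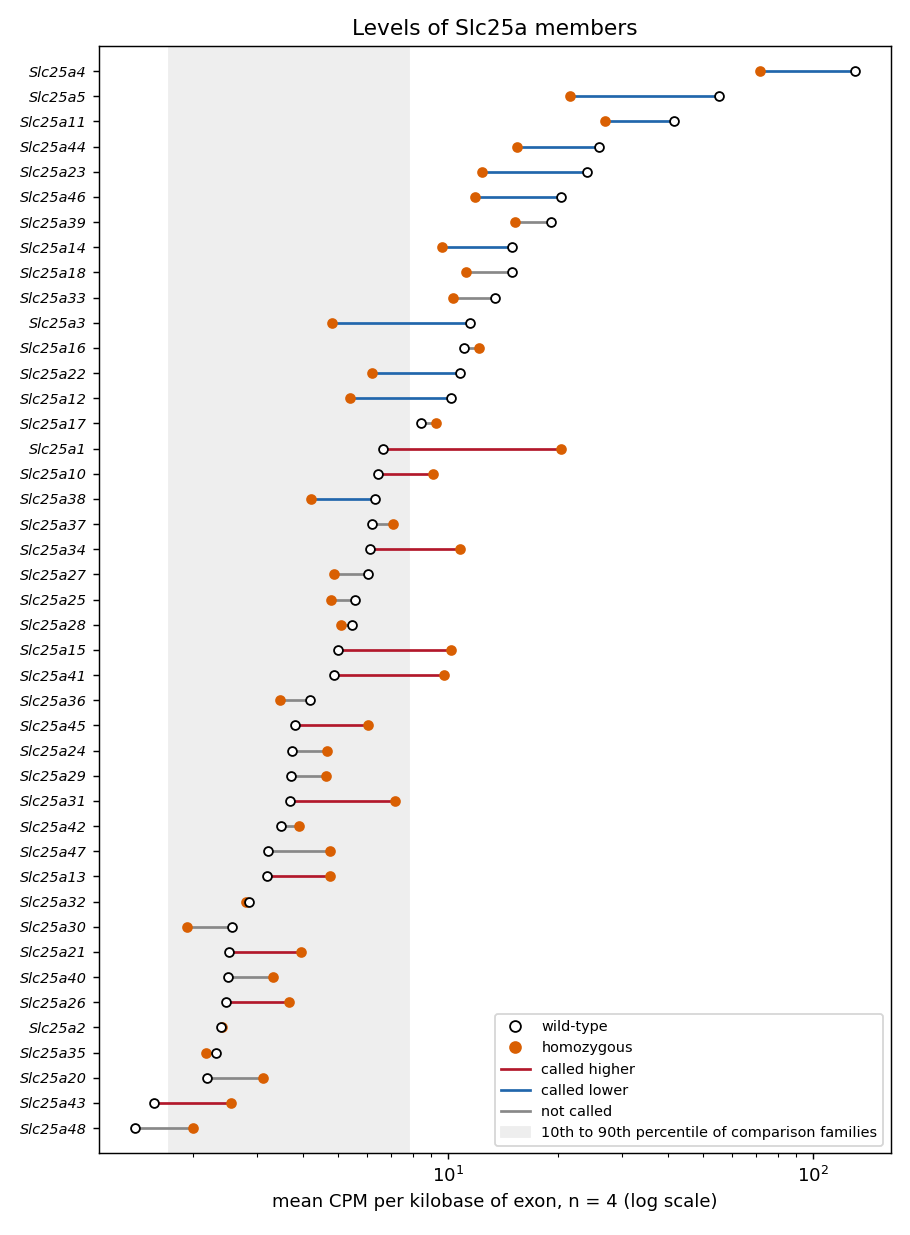
Mean CPM per kilobase of exon (log scale, n = 4 libraries each) of the Slc25a genes (1 of the 44 is not drawn) in wild-type (open points) and homozygous (orange points) hippocampus, joined by lines coloured by call; the grey band is the wild-type 10th to 90th percentile of the 144 gauge genes (1.72 to 7.81). All 11 higher members start inside or below the band, and 10 of 11 lower members start above it.

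The ADP/ATP carriers moved apart. Slc25a4 encodes ANT1, the ADP/ATP carrier of heart, muscle and brain, and Slc25a5 encodes ANT2, which most tissues carry. Slc25a5 was at 85.3, 98.7, 89.4 and 91.3 CPM in wild-type mice (replicates 7, 8, 9 and 10, the order used throughout) and at 38.2, 47.0, 27.2 and 29.9 CPM in homozygous mice (replicates 15, 16, 17 and 18). Every homozygous library was below every wild-type library. The mean fell from 91.2 ± 5.60 CPM to 35.6 ± 8.95 (SD, n = 4 each; log2 fold change -1.35, SE 0.17, adjusted p 1.94e-04 in edgeR). Slc25a4 was at 301, 309, 294 and 320 CPM in wild-type and 162, 167, 140 and 206 CPM in homozygous libraries, again without overlap. Its mean fell from 306 ± 11.4 CPM to 169 ± 27.5 (log2 fold change -0.86, SE 0.14, adjusted p 9.82e-04 in edgeR). With the abundance trend removed Slc25a4 was at -0.36 (adjusted p 0.0720 in edgeR) and with the per-kilobase trend removed at -0.08 (adjusted p 0.704), while Slc25a5 was at -1.22 (adjusted p 5.17e-04) and -0.78 (adjusted p 0.00989).

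Slc25a31 encodes ANT4, the ADP/ATP carrier of male germ cells. It was at 8.57, 8.48, 6.58 and 7.78 CPM in wild-type and 12.5, 17.1, 15.6 and 15.9 CPM in homozygous libraries. All homozygous values were higher, and the mean rose from 7.85 ± 0.919 CPM to 15.3 ± 1.95 (log2 fold change 0.96, SE 0.17, adjusted p 0.00157 in edgeR), a level of 3.69 and 7.18 CPM per kilobase that stays within the gauge. ADP/ATP carriers have near-identical processed copies in the genome. The rule by which reads that fit several copies were counted is not known here, so the values of Slc25a4 and Slc25a5 are uncertain in that respect.

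Among the phosphate and ATP-Mg carriers, Slc25a3, the carrier that brings in phosphate for ATP synthesis, was at 61.5, 73.9, 68.0 and 52.0 CPM in wild-type and 26.0, 31.1, 30.9 and 18.5 CPM in homozygous libraries. It fell from 63.8 ± 9.41 CPM to 26.6 ± 5.92 without overlap (log2 fold change -1.26, SE 0.17, adjusted p 3.93e-04 in edgeR). Slc25a23, a calcium-regulated ATP-Mg/phosphate carrier of brain, was at 163, 97.6, 137 and 113 CPM in wild-type and 75.6, 68.0, 66.2 and 53.1 CPM in homozygous libraries. Its wild-type libraries were spread widely, yet all lay above the homozygous ones, and the mean fell from 127 ± 28.5 CPM to 65.7 ± 9.33 (log2 fold change -0.95, SE 0.17, adjusted p 0.00169 in edgeR).

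Slc25a41, a short relative of that carrier without the calcium-binding part, was at 6.21, 8.48, 5.61 and 5.68 CPM in wild-type and 10.8, 12.2, 12.7 and 16.1 CPM in homozygous libraries. It rose in all 4 homozygous libraries, from 6.50 ± 1.35 CPM to 13.0 ± 2.28 (log2 fold change 1.01, SE 0.20, adjusted p 0.00267 in edgeR). The calcium-regulated paralogs Slc25a24 (log2 fold change 0.30, SE 0.17) and Slc25a25 (-0.23, SE 0.16) did not pass.

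The group listed as carriers of amino acids had 4 of 10 lower and 2 higher members (all genes, 20.4% lower and 20.7% higher). Slc25a48, whose substrate is not named here, is counted in that group. Slc25a12 encodes aralar, the aspartate/glutamate carrier of neurons and an arm of the malate-aspartate shuttle, which brings reducing equivalents of cytosolic NADH into mitochondria. It was at 72.0, 82.7, 66.6 and 77.8 CPM in wild-type and 35.9, 39.8, 41.3 and 41.4 CPM in homozygous libraries. The groups were tight and far apart, and the mean fell from 74.8 ± 7.02 CPM to 39.6 ± 2.60 (log2 fold change -0.92, SE 0.12, adjusted p 2.66e-04 in edgeR). Its paralog Slc25a13, which encodes citrin, the form of liver, was at 9.21, 12.9, 13.6 and 12.8 CPM in wild-type and 21.9, 18.9, 16.5 and 15 CPM in homozygous libraries and rose (log2 fold change 0.58, SE 0.18, adjusted p 0.0237 in edgeR). That call was lost with the abundance trend removed (0.46, adjusted p 0.0650 in edgeR), with the per-kilobase trend removed (0.41, adjusted p 0.0920), without wild-type replicate 7 (adjusted p 0.0745) and without homozygous replicate 15 (adjusted p 0.0791).

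Slc25a22 encodes the glutamate carrier GC1. It was at 78.9, 51.2, 75.2 and 52.6 CPM in wild-type and 38.2, 39.5, 39.6 and 31.1 CPM in homozygous libraries. Its wild-type values fell into a higher and a lower pair, both above all homozygous values, and the mean fell from 64.5 ± 14.6 CPM to 37.1 ± 4.04 (log2 fold change -0.80, SE 0.17, adjusted p 0.00354 in edgeR). The second glutamate carrier, Slc25a18, did not pass (-0.44, SE 0.20, adjusted p 0.0925 in edgeR) and its groups overlapped, but it was called lower without wild-type replicate 8 (-0.62, adjusted p 0.00631). Slc25a44, a carrier of branched-chain amino acids, was at 93.0, 91.5, 104 and 81.4 CPM in wild-type and 56.5, 53.4, 52.3 and 59.3 CPM in homozygous libraries and fell without overlap (log2 fold change -0.74, SE 0.12, adjusted p 8.26e-04 in edgeR).

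Slc25a38, a glycine carrier needed for haem synthesis, fell (log2 fold change -0.58, SE 0.19, adjusted p 0.0295 in edgeR), but lost the call with library totals (-0.38, adjusted p 0.134 in edgeR) and when wild-type replicate 9 or 10 or homozygous replicate 15, 17 or 18 was left out (-0.57 to -0.46, adjusted p 0.0545 to 0.0701). Slc25a15, the ornithine carrier that links the urea cycle across the membrane, rose in the other direction. It was at 28.1, 29.2, 27.3 and 28.2 CPM in wild-type and 48.8, 86.0, 51.8 and 43.1 CPM in homozygous libraries. The wild-type values were nearly equal and homozygous replicate 16 was the highest (means 28.2 ± 0.774 and 57.4 ± 19.4 CPM, log2 fold change 1.03, SE 0.20, adjusted p 0.00229 in edgeR). The other ornithine carrier Slc25a2 (0.04, SE 0.30), the basic amino acid carrier Slc25a29 (0.32, SE 0.23) and Slc25a48 (0.46, SE 0.26) did not pass.

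Among carriers of carboxylates and acylcarnitine 3 of 5 were higher and 1 lower (all genes, 20.7% and 20.4%). Slc25a1 encodes the citrate carrier, which exports citrate as the source of cytosolic acetyl-CoA for lipid synthesis. It was at 11.6, 15.3, 12.4 and 18.1 CPM in wild-type and 34.8, 72.0, 34.1 and 35.2 CPM in homozygous libraries. No values overlapped, and homozygous replicate 16 stood apart from 3 nearly equal libraries. The mean rose from 14.3 ± 2.97 CPM to 44.0 ± 18.7 (log2 fold change 1.62, SE 0.26, adjusted p 9.23e-04 in edgeR), and the log2 fold change was 1.28 without homozygous replicate 16. Slc25a21, the carrier of oxoadipate and related oxodicarboxylates, rose (0.67, SE 0.17, adjusted p 0.0105 in edgeR). The dicarboxylate carrier gene Slc25a10 rose by less (0.49, SE 0.16, adjusted p 0.0284 in edgeR) and was not called when any of the 4 wild-type libraries or homozygous replicate 16 was left out (0.34 to 0.51, adjusted p 0.0522 to 0.0746).

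Slc25a11, the oxoglutarate/malate carrier and the second membrane arm of the malate-aspartate shuttle, was at 96.4, 84.1, 86.8 and 86.5 CPM in wild-type and 51.8, 50.8, 68.2 and 58.4 CPM in homozygous libraries. It fell without overlap (log2 fold change -0.63, SE 0.13, adjusted p 0.00301 in edgeR), and with the per-kilobase trend removed it was at -0.07 (adjusted p 0.671 in edgeR). Slc25a20, the carnitine/acylcarnitine carrier of fatty acid oxidation, did not pass (0.51, SE 0.20, adjusted p 0.0661 in edgeR).

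**Figure D4:**
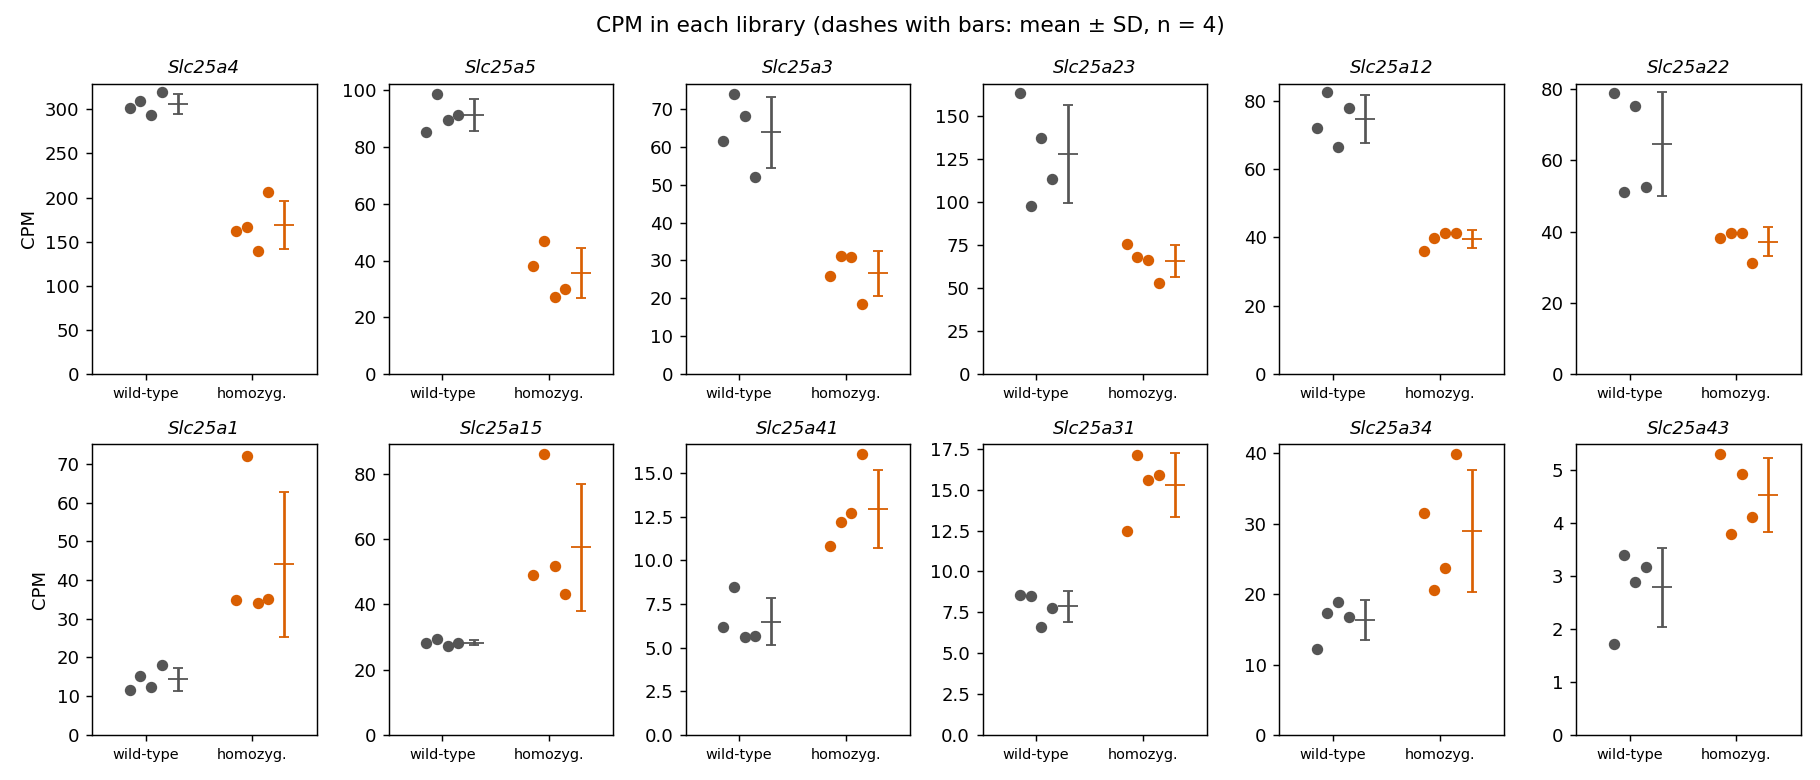
CPM in each library for the 6 called Slc25a genes that changed most in either direction; points are single libraries (4 wild-type in grey, 4 homozygous in orange), and dashes with bars are the mean ± SD. The groups do not overlap in any of the 12 panels, and 1 homozygous library stands high for Slc25a1 (72.0) and Slc25a15 (86.0).

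Of the 3 relatives of the uncoupling proteins 1 was lower and 0 were higher (all genes, 20.4% and 20.7%). Slc25a14, also known as UCP5 or BMCP1 and abundant in brain, fell from 35.4 ± 4.91 CPM to 22.7 ± 4.60 (log2 fold change -0.64, SE 0.17, adjusted p 0.0117 in edgeR), and did not pass with the per-kilobase trend removed (-0.47, adjusted p 0.0529 in edgeR). Slc25a27 (UCP4; -0.30, SE 0.14) and Slc25a30 (KMCP1; -0.38, SE 0.19) did not pass, though all 4 homozygous values of Slc25a27 (15 to 21.5 CPM) lay below the wild-type ones (22.7 to 25.0 CPM). With the per-kilobase trend removed both were called lower (-0.43, adjusted p 0.0400 in edgeR, and -0.56, adjusted p 0.0424), and Slc25a30 also with the abundance trend removed (-0.55, adjusted p 0.0435).

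Of 8 carriers of cofactors and nucleotides 1 was called, against 41.1% of all genes in either direction. Slc25a26, which brings S-adenosylmethionine into the matrix, was at 11.8, 11.5, 12.2 and 11.8 CPM in wild-type and 18, 17.1, 18.8 and 16.7 CPM in homozygous libraries. Both groups were tight, and it rose (log2 fold change 0.58, SE 0.13, adjusted p 0.00610 in edgeR). Slc25a16, linked to coenzyme A, was the most abundant by CPM and did not pass (53.5 ± 1.79 against 58.6 ± 4.73 CPM, log2 fold change 0.13, SE 0.11), nor did the coenzyme A carrier gene Slc25a42 (0.16, SE 0.19). The pyrimidine nucleotide carriers Slc25a33 (-0.40, SE 0.15) and Slc25a36 (-0.27, SE 0.13), the peroxisomal carrier Slc25a17 (0.13, SE 0.25) and the folate carrier Slc25a32 (-0.02, SE 0.16) did not pass either. With the abundance trend removed Slc25a33 was called lower (-0.47, adjusted p 0.0339 in edgeR), and with the per-kilobase trend removed Slc25a36 lower (-0.44, adjusted p 0.0278) and Slc25a16 higher (0.30, adjusted p 0.0471).

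None of the 4 carriers of iron and glutathione passed in the main edgeR fit (background 41.1% in either direction). Limma-voom with quality weights called 1 of them, Slc25a39. With library totals Slc25a37 (0.40, adjusted p 0.0116 in edgeR) and Slc25a40 (0.59, adjusted p 0.0276) were called higher, against 32.4% of all genes. All 4 homozygous values of Slc25a37 (41.6 to 43.6 CPM) lay above the wild-type ones (35.3 to 40.7 CPM). The mitoferrin genes Slc25a37 (0.19, SE 0.11) and Slc25a28 (-0.13, SE 0.19) and the glutathione carrier genes Slc25a39 (-0.33, SE 0.17) and Slc25a40 (0.39, SE 0.19) had raw p of 0.0590 to 0.513, so 0 of the 4 had an unadjusted p under 0.05. Slc25a39 was at 51.2, 55.3, 58.2 and 46.9 CPM in wild-type and 36.7, 56.0, 44.5 and 31.7 CPM in homozygous libraries, with homozygous replicate 16 inside the wild-type range. Without that library Slc25a39 was called lower (-0.50, adjusted p 0.0201 in edgeR) and Slc25a40 higher (0.53, adjusted p 0.0214). The summed level of the 4 genes was 132 ± 6.14 and 132 ± 7.89 CPM.

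Slc25a46, which encodes an outer membrane protein of mitochondrial shape and dynamics, fell from 110 ± 13.2 CPM to 64.8 ± 8.17 without overlap (log2 fold change -0.77, SE 0.13, adjusted p 0.00142 in edgeR). The remaining 5 members have substrates that are not named here. Slc25a34 was at 12.2, 17.3, 18.9 and 16.8 CPM in wild-type and 31.6, 20.6, 23.7 and 39.9 CPM in homozygous libraries and rose (log2 fold change 0.83, SE 0.22, adjusted p 0.0109 in edgeR). Slc25a45 also rose (0.65, SE 0.18, adjusted p 0.0136 in edgeR), narrowly missing the threshold with the per-kilobase trend removed (0.50, adjusted p 0.0513). Slc25a43 rose from 1.71, 3.39, 2.89 and 3.16 CPM to 5.30, 3.78, 4.92 and 4.11 CPM (0.73, SE 0.25, adjusted p 0.0376 in edgeR). It rests on 8 to 30 counts per library, and was not called with either trend removed (0.46, adjusted p 0.169 in edgeR, and 0.55, adjusted p 0.108), with DESeq2 (adjusted p 0.0944), without the low-count filter (adjusted p 0.0527 in edgeR) or when any library other than wild-type replicate 8 or homozygous replicate 16 was left out (adjusted p 0.0515 to 0.109). Slc25a35 (-0.11, SE 0.24) and Slc25a47 (0.59, SE 0.33) did not pass.

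The share of counts within a pair of carriers of like substrate does not depend on the size of a library. It is not corrected for the trend of change on level where the 2 genes differ in abundance. In this way 7 pairs were described, with no test. Slc25a12 took 88.7%, 86.5%, 83.0% and 85.8% of the counts of the 2 aspartate/glutamate carriers in the wild-type mice, and 62.1%, 67.8%, 71.5% and 73.4% in the homozygous ones. The share was lower in every homozygous library, and the mean went from 86.0 ± 2.33% to 68.7 ± 5.00% (SD, n = 4 each). Slc25a23 took 70.0% to 80.0% of its pair with Slc25a25 in wild-type mice and 58.1% to 67.3% in homozygous ones, again without overlap. Slc25a4 took 75.8% to 77.9% of the counts of Slc25a4 and Slc25a5 in wild-type mice and 78.0% to 87.3% in homozygous ones, the closest values being 77.9% and 78.0%. Shares overlapped for Slc25a22 with Slc25a18, Slc25a28 with Slc25a37, Slc25a33 with Slc25a36 and Slc25a14 with Slc25a27. The smallest pair total in a library was 138 counts, for Slc25a14 and Slc25a27.

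**Figure D5:**
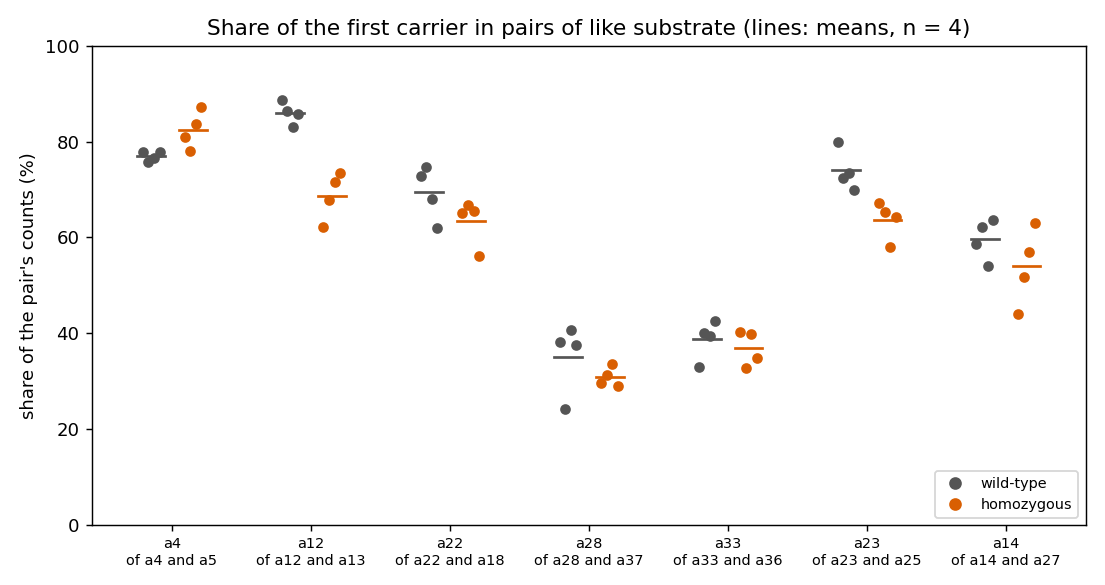
Share of the first carrier in the counts of 7 pairs of like substrate, in percent, with each library as a point (4 wild-type in grey, 4 homozygous in orange) and group means as lines; a4 stands for Slc25a4 and so on. The groups do not overlap for a4 with a5, a12 with a13 and a23 with a25, the widest gap in means being that of a12 with a13 (86.0% against 68.7%).

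Some members neighbour each other on a chromosome. On chromosome 17 of mm10, Slc25a41 (57032773 to 57041654, minus strand) rose and Slc25a23 (57043711 to 57059863, minus strand) fell, with 2056 bases between them. On chromosome X, Slc25a43 (36743659 to 36777202, plus strand) rose and Slc25a5 (36795651 to 36798807, plus strand) fell, with 18448 bases between them. The call of Slc25a43 was lost in several alternatives, as given above. Slc25a29 (log2 fold change 0.32) and Slc25a47 (0.59) on chromosome 12, 162 bases apart, passed in neither direction. Both were called higher without homozygous replicate 18. These were the 3 pairs of members within 100000 bases.

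The strand setting behind the counts is not known here, so reads of an overlapping gene on the other strand cannot be told apart from those of the carrier. Exon bases were shared with such a gene by 12 members, of which 6 were called. Slc25a11 shared 189 bases with Rnf167, which itself was lower (log2 fold change -0.73, adjusted p 0.00434 in edgeR). Slc25a26 shared 144 bases with Lrig1 (0.08) and Slc25a21 189 bases with Pax9 (0.18), neither of which was called. The partners of Slc25a10, Slc25a23 and Slc25a46 were not in the table.

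Other genes of the same machinery were taken from 5 lists. Their counts stand beside 20.4% of all genes lower and 31.0% lower among genes of 22.6 to 237 CPM, the range of the upper 22 members. Some genes of the lists lay outside that range, such as Mdh1 (mean 810 CPM in wild-type) above it and Ucp1 (5.34 CPM) below it. Family members under other symbols had 2 of 7 lower and none higher, a share near those backgrounds, and 1 lower and 2 higher with the abundance trend removed. Mtch2 and Mtch1, carrier-like proteins of the outer membrane, fell (log2 fold change -0.95, SE 0.19, and -0.85, SE 0.12; adjusted p 0.00295 and 5.26e-04 in edgeR), and Mtch1 was not called with the abundance trend removed (-0.32) or the per-kilobase trend removed (-0.21). The uncoupling protein genes Ucp1 (0.66, adjusted p 0.0521 in edgeR), Ucp2 (0.26) and Ucp3 (0.11) and the older symbols Mcart1 (0.29) and Mcart6 (-0.17) did not pass, though Ucp2 (0.37) and Mcart1 (0.49) were called higher with the abundance trend removed.

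The enzymes of the malate-aspartate and glycerol phosphate shuttles were lower in 6 of 6 cases, with a median log2 fold change of -0.79 beside 0.05 for all genes (20.4% of which were lower). The median was -0.42 with the abundance trend removed and -0.26 with the per-kilobase trend removed, with 3 of 6 lower in each. Got1, the cytosolic aspartate aminotransferase, fell from 83.9 ± 10.6 CPM to 32.7 ± 6.98 (-1.36, SE 0.16, adjusted p 1.77e-04 in edgeR). Mdh2 (-0.81, SE 0.11) and Got2 (-1.04, SE 0.15), the mitochondrial malate dehydrogenase and aspartate aminotransferase, fell too. Of the 6, Got1, Got2 and Mdh2 were also called with either trend removed, and Mdh1 (-0.06), Gpd1 (-0.25) and Gpd2 (-0.17) were not with the abundance trend removed. Gpd1 and Gpd2 were not called with library totals either.

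Genes of carrier import across the outer membrane and the intermembrane space were lower in 6 of 11 cases and higher in none (median -0.62), against 20.4% of all genes lower. Timm8b (-0.93, SE 0.16), Tomm22 (-0.88, SE 0.15) and Tomm40 (-0.77, SE 0.15) had the smallest p, and Timm22, the inner membrane channel for carriers, did not pass (-0.12, SE 0.13). With the abundance trend removed 4 of the 11 were lower, and with the per-kilobase trend removed 3, Timm8b then being at -0.27 (adjusted p 0.244 in edgeR). Other mitochondrial membrane transporters had 8 of 15 lower and 2 higher (median -0.51; all genes, 20.4% and 20.7%), among the lower ones the porin gene Vdac1 (-0.81, SE 0.14) and the pyruvate carrier gene listed as Brp44 (-1.09, SE 0.21). With the abundance trend removed 7 of the 15 were lower (median -0.12), and with the per-kilobase trend removed 3 (median -0.22), Vdac1 then being at -0.22 (adjusted p 0.249 in edgeR). In the list of regulators of mitochondrial biogenesis 1 of 7 was higher, Nrf1 (0.56, SE 0.12, adjusted p 0.00479 in edgeR), and 1 lower, Tfam (-0.38, SE 0.13, adjusted p 0.0350), which was not called with either trend removed. With either trend removed 2 of the 7 were higher and 0 lower, Esrra then being called higher as well (0.44 for abundance and 0.49 per kilobase). Ppargc1a did not pass (-0.19, SE 0.15).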

How the data were processed

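Total RNA of hippocampus had ribosomal RNA removed and was read in pairs (50 bp forward, 35 bp reverse) by SOLiD 4, per the labels' protocols. The values the authors deposited are raw counts by gene symbol. The submitters' processing notes name build mm10. For aligner, counter, strand setting and annotation, names were not given in the sources used here. Members and lists were chosen with earlier results of these data known.

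From the deposited counts, low entries were removed with filterByExpr of edgeR 4.0.16 (R 4.3.3), leaving 20478 of 24078, and scaled with TMM. The genotypes were compared in edgeR (two-sided quasi-likelihood test without covariates), with Benjamini-Hochberg adjustment over all genes tested. SE is the log2 fold change divided by the root of F. Positions and exon lengths came from GENCODE M21 (same build), promoters from RefSeq. Alternatives were RLE size factors, library totals, 2 other filters, DESeq2 1.42.0, limma-voom (limma 3.58.1), loess curves (span 0.3) on abundance or counts per kilobase (20125 genes with a length) removed as offsets, and each library left out.

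Simulated counts with known changes served to check the code. Every called member is named. Values per library are given for the 6 called members of largest fold change in each direction. They are also given for the 6 members of highest mean CPM per kilobase over all libraries of both genotypes. Those of Slc25a13 and Slc25a26 were added after their values were seen. Companion lists name up to 3 called members of smallest p, and others were added after their values were seen. Low totals limit precision. For 1 member and 1 gene of a companion list, which count in the totals, single values are not reported here.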

Additional observations from a re-analysis of the deposited data

Results flagged for a closer look

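Each of the 44 genes was looked at in each genotype for 1 library far from the other 3, by the gap to the nearest library relative to the range of all 4 (Dixon's 95% critical value). Of 88 such groups 5 were marked, and chance marks about 1 in 20. In homozygous libraries, replicate 16 was high for Slc25a1, at 72.0 CPM against 34.1 to 35.2 in the other 3, and for Slc25a17, at 45.0 CPM against 19.1 to 21.1. In wild-type libraries, replicate 8 was low for Slc25a10, at 18.6 CPM against 23.4 to 23.6, and for Slc25a45, at 8.82 CPM against 10.9 to 11.2. Wild-type replicate 10 was low for Slc25a20, at 8.63 CPM against 11.2 to 11.4. Homozygous replicate 16 was the highest homozygous library for 17 of the 44 members and for 5 of the 11 called higher.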

How the results depend on the processing

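Of the 22 called members 14 kept their call in all 16 alternatives (7 higher, 7 lower): Slc25a1, Slc25a15, Slc25a21, Slc25a26, Slc25a31, Slc25a34 and Slc25a41 higher, and Slc25a3, Slc25a5, Slc25a12, Slc25a22, Slc25a23, Slc25a44 and Slc25a46 lower. The 8 others lost it in at least 1, as given beside them, and no called member changed sign. Members outside the 22 gained a call in some alternatives. Slc25a29 and Slc25a47 were called higher without homozygous replicate 18, and Slc25a20 higher without homozygous replicate 17. Slc25a33 was called lower with RLE size factors and without wild-type replicate 7 or homozygous replicate 17, and Slc25a18 lower with limma-voom. Leaving out each library in turn gave 8 to 12 members higher and 10 to 12 lower, and the other alternatives 9 to 16 higher and 10 to 13 lower. The members' median log2 fold change of 0.01 moved by more than its spread between libraries in some alternatives. It went to 0.21 with library totals, to -0.14 with the abundance trend removed and to -0.09 without homozygous replicate 16. The median of all genes, 0.05, went to 0.25 with library totals and to 0.01 with the abundance trend removed. Leaving out each library gave a members' median of -0.09 to 0.05. The cause of these shifts was not tested. The gap in share of Slc25a12 ran from -18.9 to -15.1 percentage points, of Slc25a23 from -11.6 to -8.28 and of Slc25a4 from 3.83 to 6.94. No paired analysis was possible because the genotypes share no replicate number in the labels. Members of a few CPM rest on few counts per library, which limits calls of small changes there.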
